A study of Mus musculus with 17 samples.

Results

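Among 17 RNA sequencing libraries of mouse brain, 3 held fewer than 100 CPM (counts scaled to a common total of assigned counts) of Ttr, the gene of the thyroid hormone carrier transthyretin, and 14 held at least 100. The 3 libraries, called Ttr-poor here, were control 3, transgene 2 and transgene 6. The 14 others, called Ttr-rich, were 10 controls and 4 transgene libraries. Transgene libraries came from mice that overexpress HAR1A, a human long noncoding RNA, and controls from normal mice, all on a C57BL/6 background. The labels give no brain region, age, sex, transgene promoter or founder line, and do not say if libraries share an animal, so p-values reflect only the spread between these libraries. HAR1A itself was not analysed here. Numbers in library names follow deposition order. The libraries were chosen by their measured Ttr level, not by the study's design, and the comparison asks which other genes differ between brain samples with a high and a low level of that transcript.

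Transthyretin is the hallmark product of the choroid plexus, a folded epithelium around a vascular core that hangs in the brain ventricles and makes cerebrospinal fluid. Its epithelial cells are joined by claudins, carry ion and water transporters, and secrete carrier proteins and growth factor modulators. They border on the ependyma, the ciliated lining of the ventricles, and both cell types build motile cilia under the transcription factor Foxj1.

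Assigned counts were 17067407 to 22048107 in the Ttr-poor and 18573363 to 22642441 in the Ttr-rich libraries. Reads outside any feature made up 5.29% to 10.5% and 6.66% to 11.1%, and reads shared by several features 40.4% to 43.4% and 40.2% to 42.6%. Control 3 was sequenced on lane 8, and transgene 2 and 6 on lane 4 with all other transgene libraries and 3 controls. The groups differ in regional genes: summed CPM of 19 Hox genes, which mark hindbrain and cord, was 17.3 to 398 in the Ttr-rich controls and 0.137 to 0.398 in the Ttr-rich transgene libraries. Control 3 had 72.8 CPM, transgene 2 and 6 had 0.590 and 0.422. Study group was therefore a covariate in the comparison of the classes. That covariate cannot adjust for differences in region within a group. Summed CPM of control 3 lay below the Ttr-rich controls for brainstem (32.6 against 92.1 to 525) and hypothalamic genes (21.8 against 26.2 to 151). It was also lower for thalamic and habenular (552 against 562 to 722) and higher for cortical genes (1486 against 714 to 1114). Hippocampal, striatal, olfactory bulb, granule cell and Purkinje cell genes of control 3 lay inside the range. Transgene 2 and 6 lay above the Ttr-rich transgene libraries for striatal genes (3523 and 2591 against 1352 to 2548). They lay below them for granule cell genes (106 and 117 against 157 to 587). Transgene 6 was also higher for cortical and olfactory bulb and lower for thalamic and habenular genes, and transgene 2 lower for hippocampal genes. Both lay inside the range for hypothalamic, brainstem and Purkinje cell genes.

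Ttr had 45.9 CPM in control 3, 2.59 CPM in transgene 2 and 3.06 CPM in transgene 6. Among the Ttr-rich libraries it ranged from 332 to 4070 CPM, with a median of 1655 CPM. Control 7 lay nearest above the cut at 332 CPM, followed by transgene 3 at 645 CPM. No library lay between 45.9 and 332 CPM. These values chose the classes and were given no test.

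**Figure D1:**
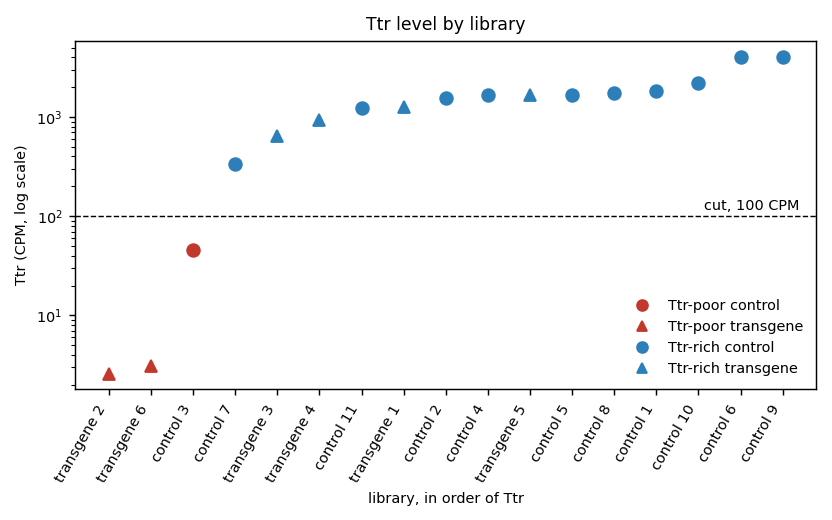
Ttr in CPM on a log scale for each of the 17 libraries, in order of its level, with control libraries as circles, transgene libraries as triangles and the cut at 100 CPM as a dashed line. The 3 libraries under the cut hold 2.59 to 45.9 CPM, and the 14 above it hold 332 to 4070 CPM.

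The 3 libraries were low in epithelial genes of the choroid plexus but did not lack them all. Of 62 genes written down for this epithelium, 61 were found and 54 had enough counts to be tested. Of those tested, 13 were lower in the Ttr-poor libraries at an adjusted p under 0.05 by edgeR and 0 were higher, where 0.149% of all tested features were lower and 0.129% higher. These genes are known from the same cells as Ttr, so nothing is read from that count, and their values below stand as a description without a test. Some stayed well above 0, so the libraries are named here by their Ttr and not as free of the tissue. In bulk samples, fewer epithelial cells and less RNA per cell cannot be told apart.

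Of 22 transport and junction genes, 18 were tested, and all 18 fold changes were below 0, with a median log2 value of -1.24 against 0.00 over all features tested. Cldn2, a claudin of leaky epithelia (mm10 chromosome X, 139800828 to 139811386), had 0.996 CPM in control 3 and 0.227 and 0.211 CPM in transgene 2 and 6. The Ttr-rich transgene libraries had 3.69 to 8.76 CPM and the Ttr-rich controls 1.10 to 17.8 CPM (median 9.36), so the classes did not overlap and the log2 difference was -3.95 ± 0.66 (SE). Control 7 was the Ttr-rich control at 1.10 CPM, close to control 3.

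Kcne2, a potassium channel subunit of the apical membrane, had 1 count over the 3 Ttr-poor and 364 over the 14 Ttr-rich libraries, a ratio of assigned-count shares of 74.4 (exact 95% interval 13.3 to 2946). Such ratios pool both study groups, and the fit with study group as covariate gave a log2 difference of -5.43 ± 1.02 for Kcne2. The Ttr-rich libraries ranged from 0.0883 CPM in control 7 to 2.07 CPM. Tmem72, a membrane protein of the plexus, had 9.02, 7.21 and 2.95 CPM in control 3, transgene 2 and transgene 6, 13 to 30.9 CPM in the Ttr-rich transgene libraries and 11.2 to 57.4 CPM (median 27.7) in the Ttr-rich controls. It too was lower in every Ttr-poor library than in every Ttr-rich one, by -1.91 ± 0.39 (SE) on the log2 scale.

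Other transport genes were lower but overlapped with control 7. The chloride channel gene Clic6 had 13.1, 9.25 and 7.91 CPM in control 3, transgene 2 and transgene 6, and its Ttr-rich values ran from 9.85 CPM in control 7 through 24.2 CPM in transgene 3 to 101 CPM. The inward rectifier gene Kcnj13 had 3.75, 2.45 and 1.85 CPM against 2.30 CPM in control 7, 5.28 CPM in transgene 3 and at most 25.8 CPM elsewhere. The water channel gene Aqp1 had 3.40, 3.36 and 5.65 CPM against 2.25 CPM in control 7 and up to 23.5 CPM. Control 7, with the lowest Ttr of its class, thus lay within or below the Ttr-poor range for all of Clic6, Kcnj13 and Aqp1. Their log2 differences were -2.03 ± 0.45, -2.03 ± 0.49 and -1.31 ± 0.48 (SE), and none passed edgeR's threshold.

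Genes of this list that many other brain cells use moved less. The sodium pump subunit gene Atp1b1 had 2793 to 3060.1 CPM in the Ttr-poor and 2581 to 4445 CPM in the Ttr-rich libraries, a log2 difference of -0.02 ± 0.13. Slc13a4, a sulfate transporter gene also used by meningeal fibroblasts, differed by -0.12 ± 0.25. The remaining tested members were Steap1 (-3.14 ± 0.68), Car12 (-2.42 ± 0.68), Cldn1 (-1.48 ± 0.39), Abca4 (-1.17 ± 0.36), Slc2a12 (-1.04 ± 0.26) and Slc4a2 (-0.74 ± 0.18), with Slc29a4 (-0.64 ± 0.21), Slc26a11 (-0.51 ± 0.15), Slc12a2 (-0.49 ± 0.16) and Slc31a1 (-0.40 ± 0.15) nearer to 0. The bicarbonate transporter gene Slc4a5 and the folate receptor gene Folr1 had too few counts for the test, with at most 0.745 and 0.446 CPM in any library. Slco1a5 and Trpv4 were also left out for low counts.

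Secreted products, receptors, keratins and enzymes of the epithelium were listed apart from the transport genes. Of 29 listed genes 28 were found, 27 were tested and 23 had a fold change below 0, with a median of -1.22 on the log2 scale. Krt8, an epithelial keratin, had 2 counts over the Ttr-poor and 854 over the Ttr-rich libraries, a ratio of 87.3 (24.1 to 722), and its Ttr-rich values were 1.34 to 5.95 CPM. Its partner Krt18 had 0.410, 0.136 and 0.106 CPM in control 3, transgene 2 and transgene 6 against 1.59 to 9.13 CPM, a log2 difference of -3.91 ± 0.56 (SE). Neither keratin overlapped between the classes in any library.

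Kl, which encodes the ageing-related coreceptor klotho (chromosome 5, 150952607 to 150993817), had 6.39, 4.58 and 10.2 CPM in control 3, transgene 2 and transgene 6. The Ttr-rich transgene libraries had 51.7, 33.7, 37.5 and 67.7 CPM and the Ttr-rich controls 16.3 to 131 CPM (median 52.8). All 3 Ttr-poor libraries lay below control 7, the lowest of the others at 16.3 CPM, and the log2 difference was -2.81 ± 0.49 (SE). Prlr, the prolactin receptor gene, had 2.23, 0.816 and 3.01 CPM against 7.17 to 27.0 CPM, again without overlap (-2.98 ± 0.43). For Prlr, control 7 was among the higher controls at 21.5 CPM, unlike its place for Kl, Cldn2 and Clic6.

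The coagulation factor gene F5 had 2.87, 2.72 and 2.74 CPM in control 3, transgene 2 and transgene 6 against 6.32 to 58.4 CPM in the Ttr-rich libraries, a log2 difference of -2.89 ± 0.50 (SE). Sostdc1, a secreted inhibitor of BMP and Wnt signals, had 1.35, 1.22 and 0.317 CPM against 3.78 to 39.9 CPM (-3.54 ± 0.68). The gene 1500015O10Rik, also called Ecrg4 and encoding a secreted peptide precursor, had 3.11, 1.59 and 1.48 CPM against 4.505 to 44.2 CPM (-2.89 ± 0.51). In each of F5, Sostdc1 and 1500015O10Rik the 3 Ttr-poor libraries were the lowest of all 17. Enpp2, the gene of the lipid-signal enzyme autotaxin, which oligodendrocytes also make, kept 60.8, 68.6 and 37.2 CPM against 87.2 to 419.8 CPM, a difference of -1.61 ± 0.34.

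The protease inhibitor gene Wfdc2 had 0.485 to 2.18 CPM in the Ttr-rich libraries and differed by -2.71 ± 0.51. The retinol dehydrogenase gene Rdh5 differed by -1.68 ± 0.30 and the angiotensin-converting enzyme gene Ace by -0.74 ± 0.14. Ace kept 23.9, 17.8 and 18.9 CPM against 28.0 to 55.9 CPM. The growth factor gene Igf2 did not separate the classes, with 7.97, 8.98 and 4.17 CPM against 6.404 to 16.7 CPM (-0.37 ± 0.28), and meningeal cells also express it. The serotonin receptor gene Htr2c was low everywhere, at 0.296 to 1.28 CPM in the Ttr-rich libraries (-0.41 ± 0.43). Differences of other tested members were -3.78 ± 0.93 for Calml4, -2.65 ± 0.72 for Mfrp, -1.29 ± 0.29 for Col8a1, -1.22 ± 0.33 for Lbp, -0.72 ± 0.27 for Igfbp2, -0.62 ± 0.24 for Cdr2, -0.61 ± 0.19 for Vat1l, -0.61 ± 0.19 for Trpm3 and -0.55 ± 0.13 for Cab39l. Bmp7 (0.01 ± 0.16, below 0 with scaling by library size only), Stra6 (0.21 ± 0.39), Cp (0.26 ± 0.15) and Sulf1 (0.42 ± 0.28) were the 4 at or above 0, and Col9a3 had too few counts.

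Transcription factor genes of the choroid lineage differed least of the 3 choroid lists, with a median of -0.60 over 9 tested of 11. Otx2, a homeobox factor needed for the plexus, was at 1.05 CPM in control 3 and at 0 in transgene 2 and 6, against 0.249 to 1.63 CPM in the Ttr-rich transgene libraries and 0.530 to 3.18 CPM in the Ttr-rich controls. Control 3 thus lay inside the control range while both Ttr-poor transgene libraries lay below their own group, and the log2 difference was -2.14 ± 0.69 (SE). Msx1, a homeobox factor of the dorsal midline, had 8.73, 8.07 and 7.33 CPM against 9.14 to 30.2 CPM (-1.0 ± 0.24). The others were Gmnc (-1.11 ± 0.34), Lmx1b (-0.74 ± 0.53), Msx2 (-0.60 ± 0.43), Rfx4 (-0.37 ± 0.17), Mcidas (0.01 ± 0.39, likewise below 0 with library size only), Hes1 (0.19 ± 0.11) and Otx1 (1.03 ± 0.69). Lmx1a, a roof plate factor, and Spdef had too few counts to test, with at most 0.512 CPM of Lmx1a.

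**Figure D2:**
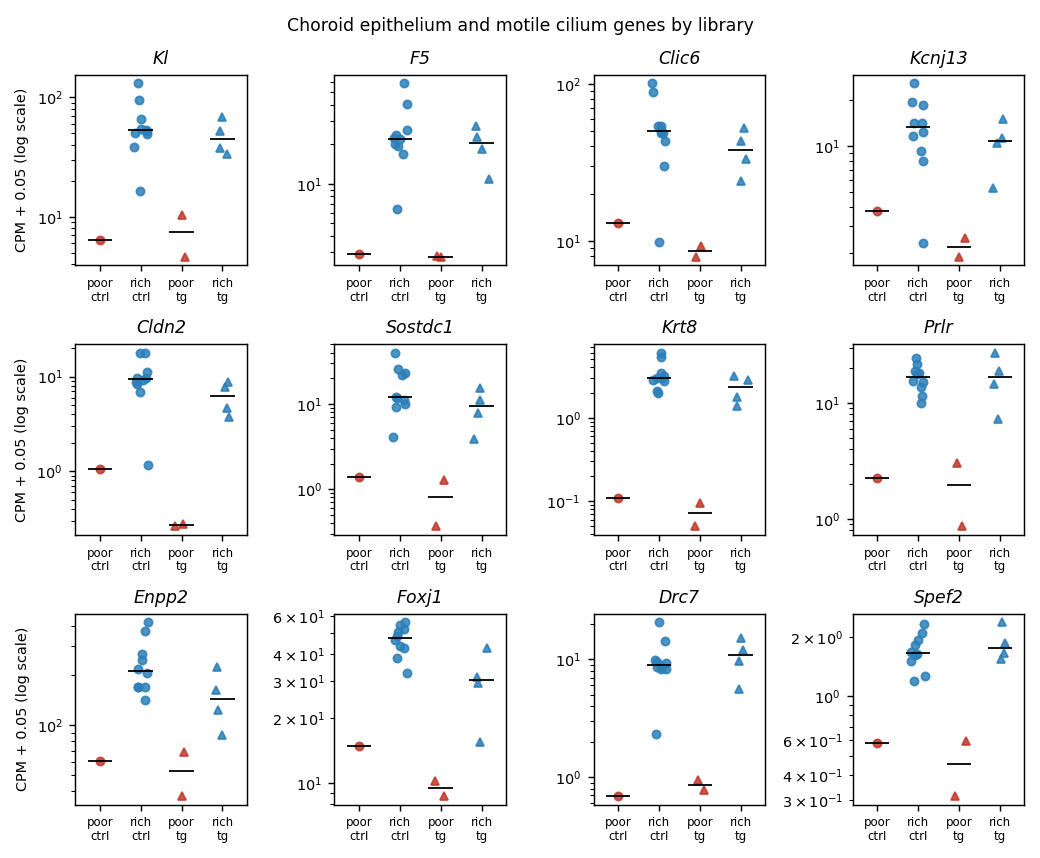
CPM plus 0.05 on a log scale of 9 choroid epithelium genes and 3 motile cilium genes, with Ttr-poor libraries in red, Ttr-rich libraries in blue, controls as circles, transgene libraries as triangles and a bar at each median. For Kl the Ttr-poor libraries lie at 4.58 to 10.2 CPM, below all Ttr-rich libraries, while for Clic6 and Kcnj13 a Ttr-rich control lies among them.

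Likeness to Ttr was measured as Spearman's rho of log2(CPM + 1) over the 17 libraries among 15703 genes with a mean of at least 1 CPM, as a description. The 10 genes most like Ttr were 1500015O10Rik (0.966), Kl (0.963), Cldn2 (0.963), Clic6 (0.958), Col8a2 (0.946), Enpp2 (0.934), Sostdc1 (0.931), F5 (0.929), Kcnj13 (0.926) and Ceacam16 (0.909). Within the 10 Ttr-rich controls alone, rho was 0.988 for Kl, 0.952 for F5, 0.927 for Clic6 and 0.903 for Cldn2. Ttr and those 4 genes therefore ranked the Ttr-rich controls in nearly the same order, too. The ranking was looser for Aqp1 (0.703 over 17 libraries and 0.515 in the 10 controls), Igf2 (0.694 and 0.261) and Prlr (0.618 and 0.358). Otx2 had 0.769 and 0.297, and Foxj1 had 0.598 over 17 libraries and -0.164 in the controls. The libraries share their depth range and differ in region, so these values have no p.

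Genes of motile cilia were also lower in the Ttr-poor libraries. Of 26 ependymal genes 21 were tested, 3 fell at an adjusted p under 0.05 by edgeR and none rose, with a median log2 fold change of -1.52. Of 22 axonemal genes, a list written after the values were seen and so no independent evidence, 21 were tested and 9 fell, 2 of which (Tctex1d4 and Ak7) stand in both lists. The background of falls was 0.149% of 20863 tested features.

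Foxj1, the master transcription factor of motile cilia (chromosome 11, 116330704 to 116335399), had 14.9 CPM in control 3, 10.2 CPM in transgene 2 and 8.65 CPM in transgene 6. The Ttr-rich transgene libraries had 31.1, 15.5, 29.3 and 42.8 CPM and the Ttr-rich controls 32.4 to 56.2 CPM (median 47.4). All 3 Ttr-poor libraries were below all 14 others, although transgene 3 lay within 1 CPM of control 3, and the log2 fold change was -1.58 ± 0.22 (SE, edgeR adjusted p = 0.00307). Control 7 had 46.2 CPM of Foxj1, near the median of the controls. It was lower for the lists as a whole: summed over the 26 ependymal genes control 7 had 75.8 CPM, the least of the Ttr-rich libraries, against 54.7 to 85.2 CPM in the Ttr-poor ones. Summed over the 22 axonemal genes it had 41.8 CPM, below the 44.8 to 48.8 CPM of all 3 Ttr-poor libraries, while the other Ttr-rich libraries had at least 66.1 CPM.

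Drc7, a subunit of the regulatory complex that ties dynein arms together, had 0.645, 0.726 and 0.897 CPM in control 3, transgene 2 and transgene 6 against 2.30 to 20.6 CPM in the Ttr-rich libraries, and fell by 3.70 on the log2 scale (SE 0.52, edgeR adjusted p = 0.00307). The dynein light chain gene Tctex1d4 had 2 counts over the Ttr-poor and 262 over the Ttr-rich libraries, a ratio of 26.8 (7.34 to 222). The dynein chain gene Wdr63 had 2 and 413 counts, a ratio of 42.2 (11.6 to 350). In all 3 genes every Ttr-poor library was below every Ttr-rich one, as in 0.848% of all features tested. Further falls by edgeR were those of the dynein genes Dnali1 (-2.92 ± 0.49, adjusted p = 0.0171) and Dnaic2 (-1.87 ± 0.33, adjusted p = 0.0242) and the adenylate kinase gene Ak7 (-2.91 ± 0.59, adjusted p = 0.0415). Spef2, of the central pair apparatus, fell as well (-1.88 ± 0.27, adjusted p = 0.00329), as did Ttc21a (-1.89 ± 0.37, adjusted p = 0.0400) and Rgs22 (-1.72 ± 0.35, adjusted p = 0.0458). Each of these was lower in the Ttr-poor than in the Ttr-rich libraries of both study groups. That order was shown by 2.56% of all tested features, and in called genes it follows largely from the calls. Ttc21a overlaps the microglial gene Cx3cr1 in the annotation, Tctex1d4 overlaps Plk3 and Dnali1 overlaps Gnl2, and without a stated strand setting their reads cannot be told apart.

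Other members of these lists missed the threshold or stood near 0. Sntn (-3.77 ± 1.11, edgeR adjusted p = 0.146), Tmem212 (-3.59 ± 0.75, adjusted p = 0.0512) and Ccdc153 (-3.08 ± 0.71, adjusted p = 0.0646) had large fold changes and low counts. Dnah11 (-0.32 ± 0.49), Hydin (-0.55 ± 0.34), Spag6l (-0.32 ± 0.22), Ccdc39 (-0.07 ± 0.21) and Drc1 (0.12 ± 0.26) had smaller values, none past the threshold. Sspo, the gene of a glycoprotein of the subcommissural organ, had too few counts to test. Summed over the 26 ependymal genes, levels were 54.7 to 85.2 CPM in the Ttr-poor and 75.8 to 159 CPM in the Ttr-rich libraries, which overlap. Cilia of the choroid epithelium and of the ependyma share these genes, and how much each cell type contributed was not tested.

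Promoters are shown for the 3 ciliary genes that fell and whose start region holds GTTGCC, part of the X-box bound by RFX factors, which work with Foxj1. Each window runs from 250 bases before to 50 after a start site in RefSeq (GRCm38.p6), with the motif, on either strand, in capitals. GTTGCC or its reverse complement GGCAAC stood in 5 of 17 windows of axonemal genes (29.4%) and in 12 of 28 windows of ependymal genes (42.9%), against 12.5% of 32851 windows of all genes. Genes that did not pass the threshold hold the motif too, among them Hydin, Spag6l, Drc1, Sntn, Ccdc153, Iqca and Spag16. Foxj1, Tctex1d4 and Ak7, the ependymal genes that fell, are not among the ependymal genes with the motif. Windows were found for 23 of 26 ependymal, 17 of 22 axonemal and 48 of 62 choroid genes, and a gene without a window could not show it. The motif was searched after the values were seen. In Spef2 (chr15:9748819-9749118, minus strand) it starts 8 bases after the start site, in Ttc21a (chr9:119937356-119937655, plus strand) 6 bases after it, and in Dnaic2 (chr11:114727169-114727468, plus strand) 26 bases before it. The Otx2 window (chr14:48665060-48665359, minus strand) holds GGATTA, the core letters that Otx factors bind, 211 bases before the start site. GGATTA or TAATCC stood in 7 of 70 windows of choroid genes (10.0%) and in 7.06% of all windows. A match is a description of these letters only.
Spef2: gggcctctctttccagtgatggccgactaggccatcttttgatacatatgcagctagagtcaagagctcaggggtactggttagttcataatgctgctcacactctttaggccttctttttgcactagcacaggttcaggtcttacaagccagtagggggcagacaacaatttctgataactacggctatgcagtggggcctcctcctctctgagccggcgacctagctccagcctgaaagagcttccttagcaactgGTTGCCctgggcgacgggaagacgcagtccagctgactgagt
Ttc21a: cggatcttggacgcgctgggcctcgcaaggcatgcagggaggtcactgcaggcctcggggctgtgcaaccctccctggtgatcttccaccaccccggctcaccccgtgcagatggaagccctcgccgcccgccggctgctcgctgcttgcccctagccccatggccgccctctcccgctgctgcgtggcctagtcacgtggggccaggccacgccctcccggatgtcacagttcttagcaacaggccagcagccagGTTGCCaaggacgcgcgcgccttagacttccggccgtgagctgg
Dnaic2: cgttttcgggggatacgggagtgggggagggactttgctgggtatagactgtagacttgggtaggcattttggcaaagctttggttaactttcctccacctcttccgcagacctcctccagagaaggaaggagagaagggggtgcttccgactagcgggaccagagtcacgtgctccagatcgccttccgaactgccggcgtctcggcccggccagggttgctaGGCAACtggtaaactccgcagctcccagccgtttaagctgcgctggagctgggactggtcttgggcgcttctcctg
Otx2: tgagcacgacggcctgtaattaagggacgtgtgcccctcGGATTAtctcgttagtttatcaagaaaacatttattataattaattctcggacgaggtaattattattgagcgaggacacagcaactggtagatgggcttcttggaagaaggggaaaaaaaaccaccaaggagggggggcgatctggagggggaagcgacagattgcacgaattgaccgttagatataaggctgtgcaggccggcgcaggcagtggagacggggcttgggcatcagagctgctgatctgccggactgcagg

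Among the largest falls were also genes outside the choroid and cilia lists, and which cells express them was not tested. Prr32, of unknown function, had 1 count over the Ttr-poor and 837 over the Ttr-rich libraries, a ratio of 171 (30.6 to 6763). The gene 2900040C04Rik, uncharacterised, had 0.234 CPM in control 3 and 0 in transgene 2 and 6, against 1.37 to 9.53 CPM, a log2 value of -5.93 ± 0.76 (SE, edgeR adjusted p = 0.00180). Cox8b, a respiratory chain subunit gene, had 0.703, 0.136 and 0.158 CPM against 1.51 to 4.22 CPM (-2.82 ± 0.41, adjusted p = 0.00329). For all of Prr32, 2900040C04Rik and Cox8b the classes did not overlap, as for 0.848% of all features tested that were lower. Lrp2, the endocytic receptor megalin, had 0.299 to 1.64 CPM in the Ttr-rich and at most 0.136 CPM in the Ttr-poor libraries (-3.39 ± 0.66, edgeR adjusted p = 0.0363). Tm4sf1 had 1 against 144 counts, a ratio of 29.4 (5.20 to 1170). Sult1c1, a sulfotransferase gene, had 0 against 60 counts and was at least 4.09-fold lower when set against 3 counts over the Ttr-poor libraries, with an exact 95% lower limit of 3.22 from the counts themselves.

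Phox2a and Epn3 also passed the threshold, and their levels followed the study groups as well. Phox2a, a factor of noradrenergic brainstem neurons, had 3 counts over the Ttr-poor and 347 over the Ttr-rich libraries, a pooled ratio of 23.6 (8.02 to 115), while the fit with study group as covariate gave a smaller log2 fold change of -3.32 ± 0.68 (edgeR adjusted p = 0.0426). It was at 0.176 CPM in control 3, 0.848 to 2.96 CPM in the Ttr-rich controls and at most 0.149 CPM in any transgene library, so it rests on control 3. It was the only 1 of 10 tested brainstem genes to pass, and it overlaps Inppl1 in the annotation. All 10 had a fold change below 0, with a median of -1.45. Of them, 4 had an unadjusted p under 0.05 by edgeR, against 5.18% of all features. The list median was -3.54 over 14 genes within the controls and -0.18 over 6 genes within the transgene libraries. Other values in that list were -2.79 ± 1.03 for Fev (edgeR adjusted p = 0.280) and -2.19 ± 0.62 for Sncg (adjusted p = 0.131). Epn3, an endocytic adaptor gene, had 21.5 CPM in control 3 against 32.5 to 57.8 CPM in the Ttr-rich controls, and 1.81 and 1.32 CPM in transgene 2 and 6 against 5.88 to 21.7 CPM (-1.88 ± 0.37, edgeR adjusted p = 0.0363).

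Genes of neutrophil precursors and granules were higher in the Ttr-poor libraries. This list of 19 genes was written after the values were seen and is no independent evidence of its direction. Of 17 tested, 10 rose at an adjusted p under 0.05 by edgeR, where 0.129% of all tested features rose, and the median log2 fold change was 2.26. Their summed level was 273 CPM in control 3, 121 CPM in transgene 2 and 220.3 CPM in transgene 6. The Ttr-rich controls had 18.9 to 68.3 CPM and the Ttr-rich transgene libraries 13.1 to 164 CPM. Transgene 4, at 164 CPM, was the Ttr-rich library that lay within the range of the Ttr-poor ones.

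Elane, the neutrophil elastase gene made in granulocyte precursors (chromosome 10, 79886247 to 79888215), had 10.1 CPM in control 3, 4.85 CPM in transgene 2 and 11.8 CPM in transgene 6. The Ttr-rich transgene libraries had 0, 0.249, 4.01 and 0.0454 CPM and the Ttr-rich controls 0 to 0.486 CPM (median 0.124). All 3 Ttr-poor libraries were above the 14 others, with transgene 4 next at 4.01 CPM, and the log2 fold change was 4.29 ± 0.74 (SE, edgeR adjusted p = 0.0196). Apart from transgene 4 no Ttr-rich library exceeded 0.486 CPM, so Elane met the expression filter mainly through the Ttr-poor libraries. Its call is therefore a description and no support. The granule protease gene Ctsg had 6.39, 2.40 and 7.76 CPM in control 3, transgene 2 and transgene 6 against 0 to 1.92 CPM, also without overlap (4.17 ± 0.74, adjusted p = 0.0242). The 3 Ttr-poor libraries alone were enough for Ctsg to meet the filter, so its call too is a description and no support. Prtn3, the proteinase 3 gene, had 9.20, 8.80 and 18.4 CPM against 0.943 to 5.75 CPM (2.44 ± 0.31, adjusted p = 0.00180). Prtn3 overlaps the neuronal gene Plppr3 in the annotation, whose reads may be among its counts.

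The haptoglobin gene Hp had 13.4, 6.08 and 12.98 CPM in control 3, transgene 2 and transgene 6, and 8.80 CPM in transgene 4 against at most 2.15 CPM in the other Ttr-rich libraries. Transgene 4 thus exceeded transgene 2 for Hp, and the log2 fold change was 2.46 ± 0.48 (SE, edgeR adjusted p = 0.0363). Cybb, a subunit of the phagocyte oxidase, rose by 1.76 ± 0.32 (adjusted p = 0.0285), the annexin gene Anxa1 by 1.84 ± 0.37 (adjusted p = 0.0415) and the leukocyte sialophorin gene Spn by 1.75 ± 0.35 (adjusted p = 0.0401). The remaining rises were those of Fcnb, a ficolin gene (3.57 ± 0.69, adjusted p = 0.0358), the leukotriene receptor gene Ltb4r1 (2.22 ± 0.43, adjusted p = 0.0363) and Ear2, an eosinophil ribonuclease gene (2.75 ± 0.50, adjusted p = 0.0259). Ear2 belongs to a family of close copies, and its counts are uncertain.

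Mature neutrophil genes had large differences that missed the threshold. Ngp had 101, 48.3 and 97.8 CPM in control 3, transgene 2 and transgene 6, 53.9 CPM in transgene 4 and 0.343 to 14.5 CPM in the Ttr-rich controls (3.25 ± 0.73, edgeR adjusted p = 0.0560). S100a8 had 177, 62.1 and 126 CPM against 100.2 CPM in transgene 4 and 0.588 to 31.8 CPM in the controls (2.81 ± 0.78, adjusted p = 0.127). Both genes put transgene 4 above transgene 2. Camp (3.23 ± 0.73, adjusted p = 0.0560), Chil3 (3.20 ± 0.71, adjusted p = 0.0560) and Ltf (3.17 ± 0.74, adjusted p = 0.0681) gave similar values. Haemoglobin did not follow: Hbb-bs had 1129, 521 and 306 CPM against 191 to 3072 CPM, a log2 fold change of 0.53 ± 0.63 (adjusted p = 0.845). Of the 10 blood genes written down earlier, none passed the threshold and 5 had an unadjusted p under 0.05, all higher, against 6.11% of all features. The largest value of that list, 3.25, is that of Ngp, so the list is not separate from the genes above. Genes of T and B cells were near 0 (2 of 11 tested, median 0.11).

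Some cell division and pigment cell genes were higher too. Mki67, a marker of dividing cells, had 10.3, 9.71 and 6.91 CPM in control 3, transgene 2 and transgene 6. The Ttr-rich transgene libraries had 1.14, 1.94, 5.43 and 2.50 CPM, highest in transgene 4, and the Ttr-rich controls 0.477 to 1.85 CPM, so the classes did not overlap (2.46 ± 0.35, SE, edgeR adjusted p = 0.00307). Top2a, the topoisomerase of dividing cells, rose by 2.0 ± 0.40 (adjusted p = 0.0403), again with transgene 4 next at 3.33 CPM below the lowest Ttr-poor value of 3.75 CPM. These were 2 of 6 tested members of a list of 12 division genes written after the values were seen and so no independent evidence, where 0.129% of all tested features rose. Ccnb2 (0.82 ± 0.29), Kif11 (0.49 ± 0.26) and Cenpe (0.42 ± 0.23) did not pass. Of 6 pigment cell genes, likewise listed after the values were seen, 4 were tested and 1 rose. Mlana, a melanosome gene, had 0.527, 0.544 and 0.950 CPM against 0 to 0.269 CPM (4.02 ± 0.76, adjusted p = 0.0339). It met the expression filter only through the Ttr-poor libraries, where it was high, so its call is a description and no support. Dct, another pigment gene, had 1.99, 2.22 and 8.23 CPM against 0.345 to 1.83 CPM (2.13 ± 0.49, adjusted p = 0.0646).

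Col1a1, the main collagen of bone and fibrous tissue, was at 39.8 and 59.99 CPM in transgene 2 and 6 against 13.4 to 20.2 CPM in the Ttr-rich transgene libraries. Control 3, at 25.3 CPM, lay inside the 13.4 to 26.1 CPM of the Ttr-rich controls, so the rise (1.24 ± 0.23, SE, edgeR adjusted p = 0.0302) rests on the transgene libraries. It was the only 1 of 24 meningeal fibroblast genes to pass. The next largest values in that list were -1.41 ± 0.55 for Spp1 (edgeR adjusted p = 0.312), 0.67 ± 0.16 for Col1a2 (adjusted p = 0.0715) and 0.47 ± 0.29 for Col3a1 (adjusted p = 0.603), and Dcn, a fibroblast proteoglycan gene, was at -0.46 ± 0.27 (adjusted p = 0.579). The bone sialoprotein gene Ibsp had 1.35, 1.04 and 2.01 CPM against 0 to 0.730 CPM (2.97 ± 0.63, adjusted p = 0.0512).

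**Figure D3:**
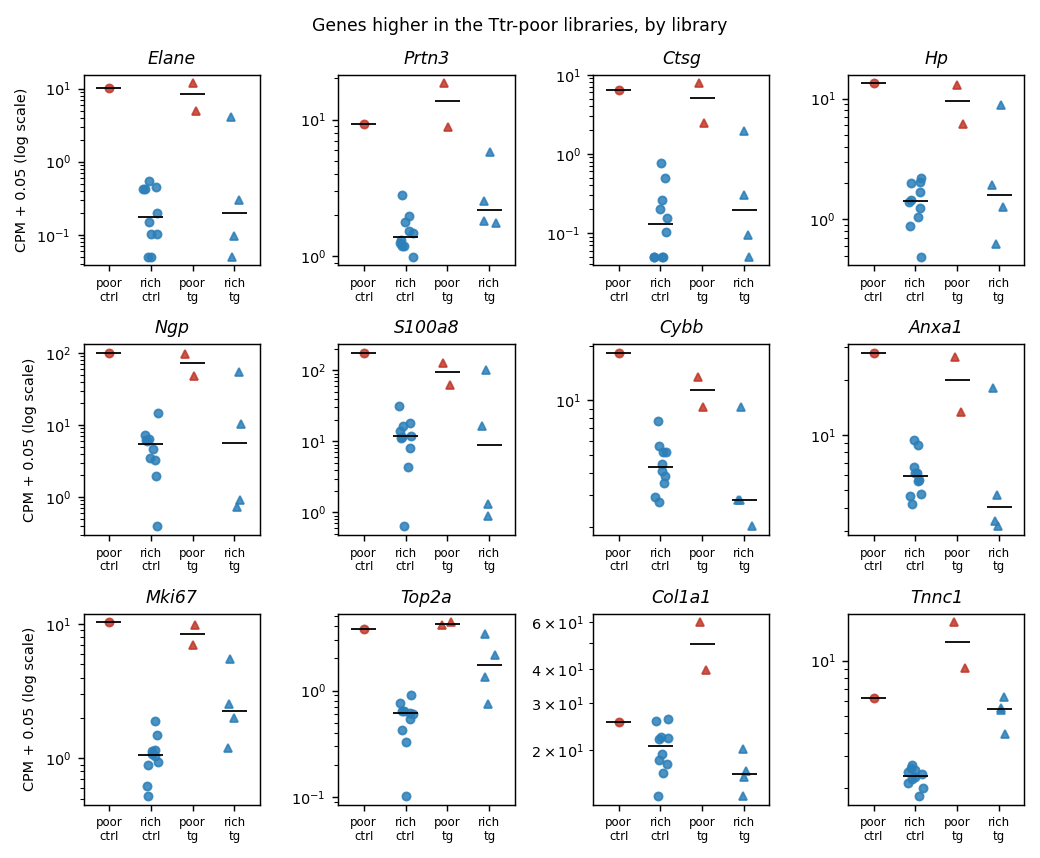
CPM plus 0.05 on a log scale of 12 genes that were higher in the Ttr-poor libraries, Ngp and S100a8 without passing the threshold, with Ttr-poor libraries in red, Ttr-rich libraries in blue, controls as circles, transgene libraries as triangles and a bar at each median. For Elane the Ttr-poor libraries lie at 4.85 to 11.8 CPM and the highest Ttr-rich library, transgene 4, at 4.01 CPM.

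Tnnc1 and Dpm3 completed the rises of at least 2-fold. Tnnc1, the gene of a slow muscle and cardiac troponin, had 6.21, 9.07 and 16.1 CPM in control 3, transgene 2 and transgene 6. Control 3 exceeded the 1.77 to 2.64 CPM of the Ttr-rich controls and transgene 2 and 6 exceeded the 3.89 to 6.29 CPM of their group (1.41 ± 0.17, SE, edgeR adjusted p = 0.00133). Tnnc1 overlaps Nisch in the annotation. Dpm3, a subunit of the dolichol-phosphate mannose synthase, had 0.762, 2.68 and 15.2 CPM against 0 to 2.33 CPM (2.62 ± 0.53, adjusted p = 0.0421), and 1 library, transgene 6, stood apart.

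The other 11 rises were under 2-fold, from 0.33 ± 0.06 for Adgrl1 to 0.86 ± 0.17 for C130074G19Rik. They included Ppm1k, Arhgap20, Ppp1r9a, Fstl4, Nlk, Arhgap32, Hrh3 and Stard8 beside those 2, and edgeR adjusted p over the 11 was between 0.0338 and 0.0496. The levels of all 11 also followed the study groups. Hrh3, a histamine receptor gene, had 26.7 to 47.5 CPM in the Ttr-rich controls, 80.0 CPM in control 3, 110.3 to 129 CPM in the Ttr-rich transgene libraries and 148 and 152 CPM in transgene 2 and 6. Control 3 stood between the other controls and the transgene libraries there, as it did for the forebrain factor gene Tbr1 (78.0 CPM, other controls 0.221 to 33.4 CPM). The part of brain region in these rises was not tested.

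Lists of other cells and regions held few or no calls. Oligodendrocyte genes were lower without passing the threshold: 13 of 18 had an unadjusted p under 0.05, against 5.18% of all features, with a median of -0.71. Mbp, a myelin protein gene, was at -0.27 ± 0.10 (edgeR adjusted p = 0.291). Medians were 0.23 for 12 endothelial, 0.09 for 11 mural, 0.02 for 12 microglial and -0.14 for 16 astrocyte genes, with no call in any. Plvap, of fenestrated vessels such as those of the choroid stroma, was at 0.00 ± 0.20 (adjusted p = 0.996), and Aqp4, of astrocyte endfeet, at -0.30 ± 0.15 (adjusted p = 0.469). Medians were 0.61 for 17 cortical, 0.43 for 16 striatal, -0.50 for 14 granule cell and -1.25 for 18 Hox genes, also with no call. Nor was there a call among 15 thalamic and habenular (median -0.43) or 16 hippocampal genes (median -0.62). With an unadjusted p under 0.05 by edgeR, 5 cortical and 4 striatal genes were higher, against 6.11% of all features. Lower at that level were 6 thalamic and habenular, 5 hippocampal, 2 granule cell and 0 Hox genes, while 2 hippocampal genes were higher. Single genes of these lists had wide errors, with -1.02 ± 1.03 for Hoxb5, -0.51 ± 1.04 for Gabra6, -0.07 ± 0.36 for Drd2, -0.93 ± 0.49 for Fos and 0.65 ± 0.22 for Rbp4. Xist, the X-inactivation transcript, was at 2.29 CPM in control 3 and at 1375 and 1114 CPM in transgene 2 and 6, so both Xist levels occurred among the Ttr-poor libraries.

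**Figure D4:**
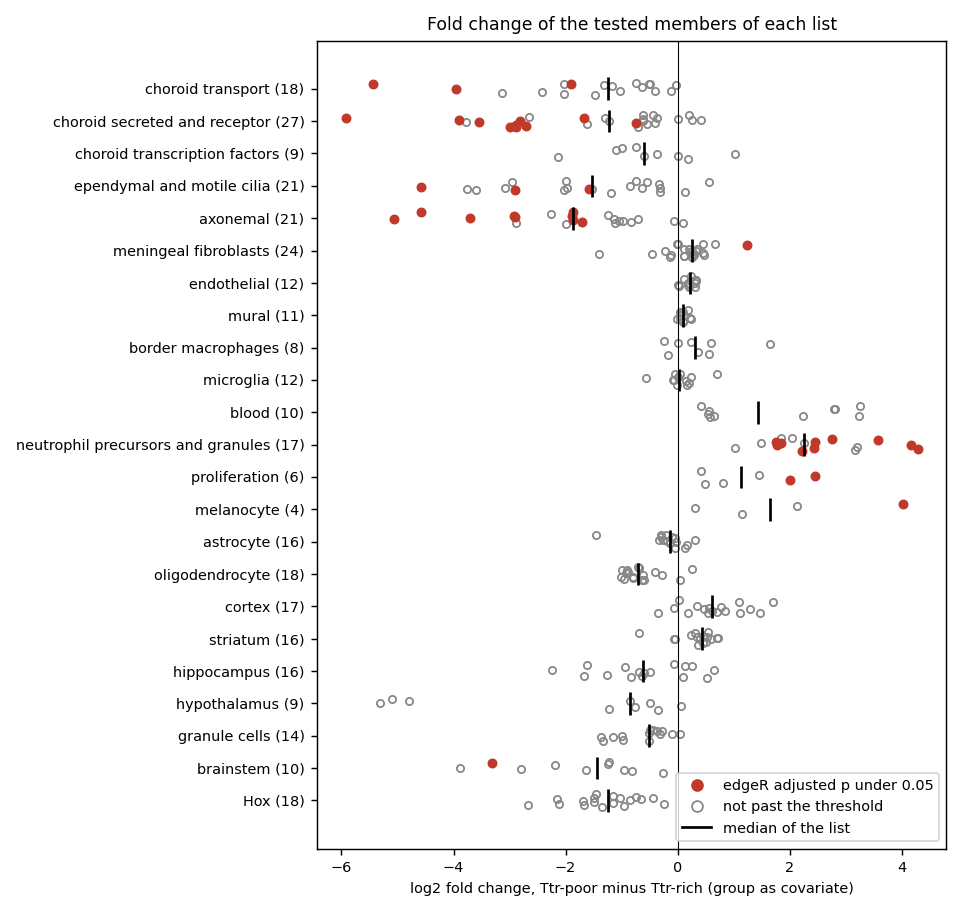
Log2 fold change, Ttr-poor minus Ttr-rich with study group as covariate, of each tested member of 23 gene lists, with genes past the edgeR threshold filled in red, the others open and a bar at each median (numbers of tested genes in brackets). The choroid, ependymal and axonemal lists lie mostly below 0 and the neutrophil list above it, with medians of -1.24, -1.22, -0.60, -1.52, -1.87 and 2.26.

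Over all 20863 features tested, 58 (0.278%) differed between the classes at an adjusted p under 0.05 by edgeR, 31 lower and 27 higher in the Ttr-poor libraries. Of the falls, 30 were at least 2-fold, and of the rises 16. In 30 of the 31 falls and 22 of the 27 rises, the Ttr-poor libraries lay beyond all Ttr-rich libraries of their own study group in both groups, an order that 2.56% and 1.54% of all tested features showed. These genes were called by the same contrast in the same libraries, so that order follows largely from the calls and is no separate support. With an unadjusted p under 0.05 there were 2356 features, 11.3% of those tested. DESeq2 called 210 lower (0.913%) and 159 higher (0.691%). Scaling by library size alone gave 45 calls, of which 24.4% were higher instead of 46.6%, with the median over all features moving by -0.06 on the log2 scale. Without control 3, 7 genes were called, the falls 2900040C04Rik, Krt8, Cox8b, Epn3 and Dnaic2 and the rises Tnnc1 and Col1a1. Leaving out a single other library gave 17 calls without transgene 6, 22 without transgene 5, 24 without transgene 1, 30 without transgene 2 and 31, 37 and 38 without control 1, 5 and 9, and it gave 136 without transgene 4, 198 without control 7 and 210 without transgene 3. Krt8, 2900040C04Rik, Cox8b and Tnnc1 were called whichever library was left out.

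Within each study group the contrast was repeated. Among the 11 controls, where control 3 stands alone against 10 and is assumed to vary like them, edgeR called 21 of 22459 features (0.0935%), 2 lower (0.00891%) and 19 higher (0.0846%). Krt8 (-5.69 ± 0.96) and Foxj1 (-1.67 ± 0.26) were the 2 lower ones. Those higher included Elane (5.59 ± 0.70), Ngp (4.18 ± 0.70), Camp (4.18 ± 0.65), Ltf (4.25 ± 0.66), Mki67 (3.27 ± 0.39), Hp (3.22 ± 0.41) and Prtn3 (2.57 ± 0.37). In this fit a gene could meet the expression filter through control 3 alone, as Elane did. The rises within the controls are therefore a description and no support. No call was left without control 5 or control 9, 1 without control 4, 4 without control 6, 5 without control 2, 7 without control 8 and 14 without control 1, while 46 were made without control 7. Among the 6 transgene libraries, 2 against 4, edgeR called 0 of 19239 features, with 1987 at an unadjusted p under 0.05 (10.3%) and 0.0596 the smallest adjusted p. DESeq2 called 113 lower and 49 higher there. edgeR called 35 features without transgene 3, 23 without transgene 4 and 0 without transgene 1 or 5. With transgene 6 alone on the Ttr-poor side, assumed to vary like the others, it called 41, and with transgene 2 alone 0. Fold changes among the 6 were -1.58 ± 0.34 for Foxj1, -2.61 ± 0.39 for Kl, -3.62 ± 0.44 for Drc7, 3.01 ± 1.11 for Elane and 1.66 ± 0.46 for Mki67. A test of whether the contrast differed between the groups called 0 of 23744 features by edgeR, with 1528 at an unadjusted p under 0.05 (6.44%), 0.616 the smallest adjusted p and 1 feature called by DESeq2. For the choroid lists the median was -1.82, -1.49 and -0.72 in the controls and -1.0, -1.11 and -0.35 in the transgene libraries. The neutrophil list had medians of 2.77 and 1.68.

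**Figure D5:**
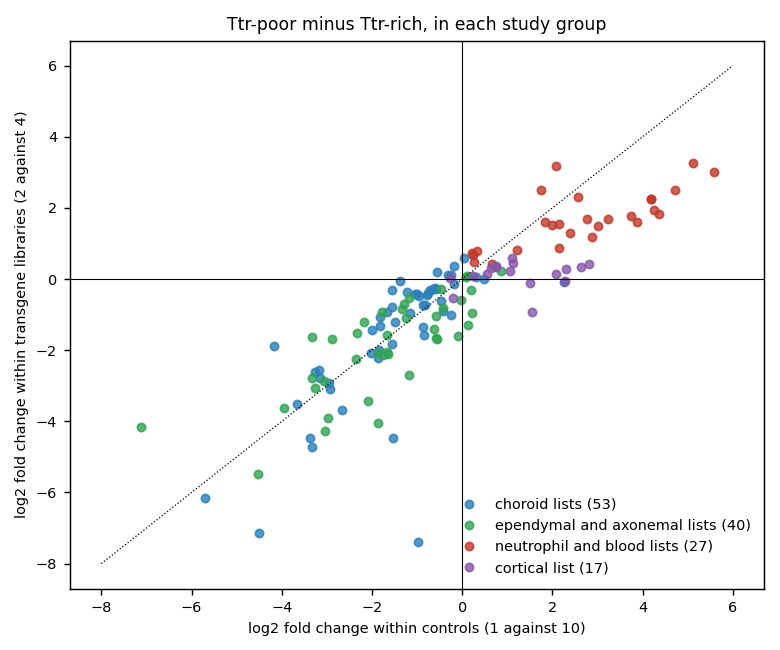
Log2 fold change of Ttr-poor against Ttr-rich libraries within controls (x axis, 1 against 10) and within transgene libraries (y axis, 2 against 4) for genes of the choroid, cilia, neutrophil with blood, and cortical lists, with a dotted line of equal change. Cilia and choroid genes lie mostly low on both axes (Drc7 at -3.95 and -3.62) and neutrophil genes high on both (Elane at 5.59 and 3.01), and genes at 0 counts in a class have fitted values that are no bound.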

How the data were processed

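RNA of 17 mouse brain libraries (11 control, 6 transgene, per the labels) was described by raw counts per transcript that the authors deposited, with 68517 rows for each library. The build was mm10, per the submitters' processing notes. Which aligner, counter and strand setting were used is not given in the sources used here. In each file 5 closing rows, which name no gene and hold reads outside features (5.29% to 11.1%) or shared by several (40.2% to 43.4%), were kept out of totals and tests, so genes with overlapping transcripts lost reads.

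Of 64505 Ensembl rows, 64380 matched GENCODE M21 by name and were summed to 41015 genes. With 4007 assembled-locus rows and the unmatched ones this gave 45147 features. CPM are over assigned counts. Classes were cut at 100 CPM of Ttr, which was left out of tests.

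Tests used edgeR 4.0.16 (TMM scaling, quasi-likelihood F test, its default expression filter, R 4.3.3) with study group as covariate and Benjamini-Hochberg adjustment over all features tested at 0.05. The SE was derived from the F statistic. Ratios with 1 to 3 counts have exact 95% intervals, which cover counting error only. Scripts were tested on simulated data. Of the 58 called genes, 26 overlap another annotated gene and 16 have several deposited rows, and such values may not hold for the whole gene.

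Named genes are the 10 largest rises and falls among those called whose mean log2 CPM was 0 or more (Ttr left out, predicted genes only if among the 3 largest), all tested choroid genes, up to 4 members with the largest change of each other list holding a call, and 14 genes chosen for cell type or region. Other called genes were named after their values were seen, and a few genes these rules name are not reported here. The members, 28 gene lists (428 entries, 426 found) and tests were chosen with earlier results of these data known, and 6 further lists were written after the values were seen. Alternatives were DESeq2 1.42.0, other scalings, filters, covariates, cuts on Ttr and left-out libraries.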

Additional observations from a re-analysis of the deposited data

Results flagged for a closer look

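Among the 4 Ttr-rich transgene libraries, transgene 4 lay far above the others for several neutrophil genes, by the gap to its neighbour relative to the range of the group. It had 100.2 CPM of S100a8, 8.80 CPM of Hp, 4.01 CPM of Elane and 1.92 CPM of Ctsg. It also had 0.0912 CPM of Mlana, where the other 3 had 0. Among the 10 Ttr-rich controls, control 7 stood apart with 0.0883 CPM of Kcne2, the lowest, and with 4445 CPM of Atp1b1 and 14.5 CPM of Ngp, the highest. Control 11 stood apart with 0.269 CPM of Mlana. Of 98 groups looked at, 9 gave such a library, and chance alone sets some apart. How many is not known here, because the groups share libraries and several of the values rest on few counts. The neutrophil genes were measured in the same libraries, so their values are not separate evidence.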

How the results depend on the processing

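Among genes named in the text, 1 that had passed the threshold changed its direction under an alternative: Phox2a, at 0.0714 with a cut at 1000 CPM of Ttr. A further 22 changed sign in at least 1 alternative without passing the threshold in either fit, such as Atp1b1 (0.15 without control 3) and Bmp7 (-0.25 in controls only). Cuts at 50 and 300 CPM gave the same 58 calls, since no library lay between. Counts of rises and falls (27 and 31) became 159 and 210 with DESeq2, 11 and 34 with library size only, 11 and 25 without the group covariate, 13 and 38 with lane and flow cell, 15 and 28 with Xist, and 197 and 268 with Hox and granule cell levels, which kept all 58 calls. They became 34 and 7 with the cut at 1000 CPM (10 calls shared), 25 and 92 with log2 Ttr as a continuous covariate, 19 and 2 in controls only and 0 and 0 in transgene libraries only. Without control 3 and control 7, an alternative chosen after seeing the data, they were 3 and 29. Transcript rows without summing gave 24 and 28. Leaving out each library in turn gave 2 to 89 rises and 5 to 121 falls, in controls only (19 and 2) 0 to 31 and 0 to 15, in transgene libraries only 0 to 34 and 0 to 34, and 0 for the difference between the groups. In controls only DESeq2 called 59 and 83. In transgene libraries only it called 49 and 113, and edgeR without a filter on low counts 82 and 164. For the difference between the groups DESeq2 called 1 feature higher. The cause of these differences was not tested. No paired analysis was possible because the labels give no replicate numbers that link libraries across groups. With 3 Ttr-poor libraries, 1 of them a control, precision is limited by their number, and genes under about 1 CPM rest on few counts.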

Other observations

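Hormone genes of other structures were high in single libraries. Summed over 11 pituitary genes, control 7 had 1071 CPM. The other Ttr-rich libraries had 0.697 to 2.28 CPM and the Ttr-poor ones 0.0586 to 0.422 CPM. The classes did not overlap, but apart from control 7 these sums rest on few counts. Of all single features tested, 0.848% were lower in the Ttr-poor libraries without overlap over all libraries. Only 2 of the 11 had enough counts to be tested, and neither passed (smallest edgeR adjusted p = 0.174). Control 7, the Ttr-rich library with the least Ttr, had 946 CPM of Gh, 86.3 CPM of Pomc and 21.3 CPM of Cga, which are pituitary hormone genes, while the Ttr-poor libraries had at most 0.211 CPM of Gh and 0 CPM of Pomc. In transgene 1 and transgene 4 the hypothalamic peptide gene Avp reached 68.1 and 97.2 CPM, and no other library exceeded 1.88 CPM. Oxt reached 32.5 and 14.2 CPM there. Both libraries were Ttr-rich, and the Ttr-poor libraries had 0.117 to 0.264 CPM of Oxt.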
